A study of Homo sapiens with 8 samples.

Results

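The 9 genes described here span the transforming growth factor beta (TGF-beta) pathway: the ligands TGFB1 and TGFB2, the receptors TGFBR1 and TGFBR2, the signal transducers SMAD3 and SMAD4, the inhibitors SMAD7 and SKIL, and the response gene TGFBI. They were chosen by name, 9 of the 19689 protein-coding genes annotated by GENCODE on chromosomes 1 to 22, X and Y. For each gene, all H3K27ac peaks in the gene body plus 50 kb on either side were taken from 6 peak lists (hg38). Acetylation of lysine 27 of histone H3 (H3K27ac) marks nucleosomes at active promoters and enhancers. Peaks that overlapped or touched between libraries were merged into intervals, and the 9 windows held 200 of the 143733 intervals of the whole series.

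The libraries come from HCEC-1CT, a human colonic epithelial cell line immortalized with CDK4 and telomerase, in which the study introduced doxycycline-inducible Cas9. Parental WT cells (3 libraries) were compared with CREBBP-KO cells (3 libraries), which the labels call CBP KO. The sources do not say whether the 3 libraries of a genotype come from independent cultures. The knockout cells are called monoclonal in the ChIP-seq methods, while pooling of several clones and of matched parental subclones is described elsewhere in the paper. The effect of genotype and of clonal origin therefore cannot be told apart. CREBBP encodes an acetyltransferase that deposits H3K27ac, and the comparison asks how its loss changes this mark.

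Several values of the whole series bear on what follows. The WT lists held 86163 to 93567 peaks and the CREBBP-KO lists 99008 to 111697. The lists carry no read counts, so depth is unknown and no counting intervals can be given. The label of colonic epithelium is not matched by promoter H3K27ac at its markers: 8 of 12 epithelial markers, among them CDH1, KRT19, VIL1 and CDX2, had no promoter peak in any library, and peaks of the other 4 ranged from percentile 0.175 to 57.7 in the WT lists, and from 19.7 to 86.4 in the knockout lists. The paper states that these cells still express intestinal markers, and expression is a different measure from promoter peaks. EPCAM stood at percentile 0.175, 7.27 and 8.36 of the WT lists and 46.1, 35.6 and 19.7 of the CREBBP-KO lists. The 5 mesenchymal markers VIM, COL1A1, COL1A2, PDGFRB and ZEB1 had promoter peaks in all 6 libraries, between 93.3 and 98.9 for the WT lists, and between 95.9 and 99.9 for the knockout lists. The part of differentiation state in the differences given here was not tested. Of the 3 haematopoietic markers none had a peak, and of the 2 endothelial markers PECAM1 had a weak peak in the 3 CREBBP-KO libraries alone. The CREBBP promoter itself was acetylated in all 6 libraries, at percentiles 96.5, 98.6 and 94.8 in WT and 98.8, 98.8 and 99.3 in CREBBP-KO, and acetylation of the promoter does not check the loss of the protein.

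TGF-beta ligands are secreted in a latent form and, once released, bind the type II receptor TGFBR2, which recruits and phosphorylates the type I receptor TGFBR1. The activated receptor phosphorylates SMAD2 and SMAD3, which join SMAD4, enter the nucleus and bind short DNA elements, where they recruit coactivators including CREBBP and EP300. The pathway induces its own inhibitors, among them SMAD7, which blocks the receptor, and SKIL (also called SnoN), which represses SMAD complexes. In colonic epithelium TGF-beta restrains proliferation, and TGFBR2, SMAD3 and SMAD4 are tumour suppressors there.

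Sequences of 5 distal intervals with differing ranks in the 2 genotypes are shown first, as 300 bases of hg38 around the summit of the highest peak, plus strand. Capitals mark the 6-letter SMAD element CAGACA, the AP-1 element TGANTCA, the TEAD element GGAATG, the cAMP-response element TGACGTCA and the RUNX element TGTGGT on either strand. The windows are chr18:48975447-48975746 and chr18:48930241-48930540 around SMAD7, chr3:30681529-30681828 in TGFBR2, chr5:136006356-136006655 upstream of TGFBI, and chr18:51070384-51070683 in SMAD4. The first 4 ranked higher in CREBBP-KO and the last ranked lower.
SMAD7, 24.6 kb upstream: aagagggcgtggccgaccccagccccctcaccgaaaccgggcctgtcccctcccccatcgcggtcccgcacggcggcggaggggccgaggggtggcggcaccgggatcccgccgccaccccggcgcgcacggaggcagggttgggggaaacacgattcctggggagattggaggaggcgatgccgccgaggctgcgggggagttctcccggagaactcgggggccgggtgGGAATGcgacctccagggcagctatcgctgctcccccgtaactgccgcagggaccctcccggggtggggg
SMAD7, 20.6 kb downstream of the start: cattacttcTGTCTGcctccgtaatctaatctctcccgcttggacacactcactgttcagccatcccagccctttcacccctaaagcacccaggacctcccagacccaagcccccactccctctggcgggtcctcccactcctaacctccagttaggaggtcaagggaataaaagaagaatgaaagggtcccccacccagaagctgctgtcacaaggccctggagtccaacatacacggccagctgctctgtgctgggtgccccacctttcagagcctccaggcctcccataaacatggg
TGFBR2, 75.1 kb downstream of the start: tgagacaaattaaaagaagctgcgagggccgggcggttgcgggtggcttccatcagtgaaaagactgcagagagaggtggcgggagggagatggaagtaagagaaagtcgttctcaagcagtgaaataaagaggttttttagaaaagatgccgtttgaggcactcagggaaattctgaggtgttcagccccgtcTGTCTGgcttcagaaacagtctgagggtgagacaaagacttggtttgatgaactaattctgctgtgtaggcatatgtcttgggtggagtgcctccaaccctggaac
TGFBI, 22.5 kb upstream: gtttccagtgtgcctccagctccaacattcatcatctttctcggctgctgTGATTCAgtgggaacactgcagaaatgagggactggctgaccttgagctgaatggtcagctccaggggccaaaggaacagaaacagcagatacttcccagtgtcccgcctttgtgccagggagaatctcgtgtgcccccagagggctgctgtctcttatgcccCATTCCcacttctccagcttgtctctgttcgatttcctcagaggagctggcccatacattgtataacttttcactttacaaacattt
SMAD4, 40.3 kb downstream of the start: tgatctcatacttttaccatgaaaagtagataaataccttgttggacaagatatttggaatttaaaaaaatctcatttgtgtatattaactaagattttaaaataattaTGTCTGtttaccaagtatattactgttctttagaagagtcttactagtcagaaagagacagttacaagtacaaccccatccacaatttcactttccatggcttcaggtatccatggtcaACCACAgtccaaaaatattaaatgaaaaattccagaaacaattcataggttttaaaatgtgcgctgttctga

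The window upstream of SMAD7 was rich in G and C (74.3%), whereas the SMAD4 window held 30.7%, against a median of 44% over 23277 tested distal intervals. The 6-letter SMAD element lay in 13 of the 39 tested distal windows of the 9 genes (33.3%), against 20.8% of all tested distal windows. It was present in 3 of the 11 windows that ranked higher and in 2 of the 4 that ranked lower. The AP-1 element was found in 3 of 39 (7.69%, against 11.4%), TEAD in 8 (20.5%, against 16.3%) and RUNX in 8 (20.5%, against 20.2%). The 8-letter SMAD palindrome GTCTAGAC and the cAMP-response element were found in 0 of 39, against 0.146% and 0.0902%. These matches are counts of letters, given without a test.

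Promoter sequences for all 9 genes were found in RefSeq (GRCh38.p14, 250 bases before to 50 after a start, read on the gene's strand, taking the start nearest to the canonical one). Among these, 3 are shown: SKIL, the only one of the 9 with a cAMP-response element, an element found in 1.85% of 35116 promoter sequences, TGFBR2, the only one with an AP-1 element (7.71% of all), and TGFB2, the only one with the 6-letter SMAD element (16.9% of all). In the same marking, they lie at chr3:170357465-170357764, chr3:30606351-30606650 and chr1:218345086-218345385.
SKIL: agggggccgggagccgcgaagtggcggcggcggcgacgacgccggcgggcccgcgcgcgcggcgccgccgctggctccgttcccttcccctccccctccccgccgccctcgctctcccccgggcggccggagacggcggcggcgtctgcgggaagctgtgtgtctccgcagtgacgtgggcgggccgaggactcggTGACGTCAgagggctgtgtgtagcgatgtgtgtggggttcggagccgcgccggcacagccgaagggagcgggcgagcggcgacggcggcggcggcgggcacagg
TGFBR2: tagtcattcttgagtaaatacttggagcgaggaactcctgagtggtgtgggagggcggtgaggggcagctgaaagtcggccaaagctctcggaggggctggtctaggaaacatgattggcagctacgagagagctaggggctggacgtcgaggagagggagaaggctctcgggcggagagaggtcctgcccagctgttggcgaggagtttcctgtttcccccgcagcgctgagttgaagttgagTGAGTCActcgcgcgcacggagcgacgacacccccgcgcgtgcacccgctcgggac
TGFB2: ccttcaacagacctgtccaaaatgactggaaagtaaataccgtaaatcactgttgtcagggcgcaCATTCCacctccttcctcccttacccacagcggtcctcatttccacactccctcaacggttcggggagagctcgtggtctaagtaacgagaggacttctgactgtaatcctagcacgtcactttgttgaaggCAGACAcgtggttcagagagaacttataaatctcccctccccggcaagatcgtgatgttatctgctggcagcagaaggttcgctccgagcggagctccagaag

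Peak height is given as the deposited fold over local background and as its percentile within the library's own list. The CREBBP-KO lists are longer, and a fold of 5 corresponded to percentiles 57 to 58.4 of the WT lists and 60.6 to 63.5 of the CREBBP-KO lists. Differences of a few percentile units therefore need a second measure. An interval was tested when the fold was at least 5 in all 3 libraries of either genotype and a peak was present in all 6. Ranks among the 34864 tested intervals were converted to normal scores, and the difference of their means, CREBBP-KO minus WT, is called the rank shift; an interval was called higher or lower at an adjusted p of 0.05 (limma, over all tested intervals). A change of equal size at all peaks would not be visible on this scale. The paper reports a small decrease of total H3K27ac in the knockout by immunofluorescence, which ranks cannot show. Its read-based test, with a stricter FDR and a minimum fold change, left most H3K27ac peaks unaffected. Counts of rank calls use another measure and a looser threshold, and cannot be set against that result.

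Of the 200 intervals around the 9 genes, 59 passed the fold filter, all of them had a peak in 6 libraries, and 141 were not tested. H3K27ac ranked higher in CREBBP-KO at 15 of the 59 (25.4%; 18.6% of all tested intervals) and lower at 4 (6.78%; 18.7% of all). Among the 39 distal intervals, away from any protein-coding start, 11 ranked higher and 4 lower, whereas over all 23294 tested distal intervals 14.9% ranked higher and 23.6% lower. Their median shift was 0.17, against a median of −0.10 over all distal intervals. Of the 15 intervals at the genes' own starts 4 ranked higher and 0 lower (3 had a negative shift), against 25.9% higher and 8.98% lower over all 11570 tested promoter intervals; none of the 5 intervals at starts of neighbouring genes was called. Of the 15 intervals called higher, 6 reached the fold filter in CREBBP-KO alone (the TGFB2 and TGFBI promoters and 4 SMAD7 intervals), so their difference is partly built into the filter, and intervals of 1 gene share a locus. Without the SMAD7 window the counts were 10 higher and 3 lower of 51.

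Each ligand gene had 1 called interval, the promoter of TGFB2 and a distal interval of TGFB1, both ranked higher in CREBBP-KO. TGFB2 encodes a ligand that needs betaglycan or high receptor levels to signal efficiently. Its promoter interval (chr1:218344891-218347657) had folds of 3.74, 4.42 and 3.81 in WT and 6.07, 6.10 and 5.93 in CREBBP-KO. All 3 knockout libraries exceeded all 3 WT libraries, with percentiles of 39.7, 51.3 and 38.2 in WT and 71.5, 69.8 and 67.6 in CREBBP-KO and a shift of 0.93 (SE 0.29, adjusted p = 0.014). The interval reached the fold filter in CREBBP-KO alone, and the call was lost without CREBBP-KO replicate 1 (adjusted p = 0.056) and when ranked by −log10 p (0.089). The summit in WT replicate 2 lay 1.57 kb downstream of the start, while those of the other libraries lay 0.282 to 0.832 kb downstream. The 2 highest distal intervals of TGFB2 were not called: 134.9 kb downstream of the start the percentiles were 85.7, 80.2 and 82.2 in WT and 82.9, 77.5 and 80.9 in CREBBP-KO, and 32.4 kb upstream, in an intron of RRP15, they were 77.0, 85.1 and 82.5 in WT and 79.6, 83.0 and 70.7 in CREBBP-KO. In this window, 3 of 6 tested intervals had a positive shift (51.6% of all tested intervals), the promoter being the only one called.

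TGFB1, the most widely expressed ligand, had a promoter interval at chr19:41349948-41354483 that also covers a start of TMEM91. Its percentiles were 72.4, 57.6 and 73.7 in WT and 75.1, 82.2 and 79.2 in CREBBP-KO, and its folds were 7.01, 4.96 and 7.47 in WT and 6.72, 9.32 and 8.62 in CREBBP-KO. The genotypes did not overlap in percentile, but they did in rank among tested intervals, and the shift was 0.46 (SE 0.29, adjusted p = 0.22). An interval 13.8 kb upstream, in an intron of TMEM91 (chr19:41365710-41369461), ranked higher in CREBBP-KO. There the percentiles were 83.7, 80.4 and 73.8 in WT and 89.9, 93.8 and 89.2 in CREBBP-KO and the shift was 0.68 (SE 0.20, adjusted p = 0.01), a call lost without CREBBP-KO replicate 2 (adjusted p = 0.076). The intronic interval 30.5 kb downstream of the start stood at 75.3, 77.8 and 78.4 in WT and 89.4, 84.9 and 81.6 in CREBBP-KO and was not called (shift 0.37, SE 0.21, adjusted p = 0.17).

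Neither receptor promoter was called. TGFBR2 was strongly acetylated at its start (chr3:30605038-30617317), with folds of 18.1, 17.8 and 27.1 in WT and 19.0, 20.8 and 22.2 in CREBBP-KO. WT replicate 3 lay above the 5 other libraries, at percentile 99.6 against 96.6 to 97.5, and the shift was −0.32 (SE 0.21, adjusted p = 0.22). TGFBR1, whose window held a single tested interval (chr9:99103648-99106622), had percentiles of 81.5, 90.4 and 92.2 in WT and 87.1, 89.9 and 82.7 in CREBBP-KO. The ranges overlapped fully (shift −0.26, SE 0.21, adjusted p = 0.35). Promoter percentile differences of both receptors changed sign when a library was left out.

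Inside the TGFBR2 gene, 2 intronic intervals ranked higher in CREBBP-KO. The interval 75.1 kb downstream (chr3:30678699-30685972) had folds of 10.8, 11.0 and 9.26 in WT and 19.7, 19.1 and 17.6 in CREBBP-KO, without overlap between genotypes. In percentile this was 86.0, 87.0 and 80.8 in WT and 97.3, 96.2 and 94.5 in CREBBP-KO, with a shift of 0.91 (SE 0.17, adjusted p = 0.00035). The interval 52.4 kb downstream (chr3:30655021-30664726) stood at 93.2, 92.0 and 89.7 in WT and 97.4, 98.5 and 98.2 in CREBBP-KO (shift 0.77, SE 0.16, adjusted p = 0.0009). Both stand among the highest peaks of the knockout lists. A weaker interval closer to the start moved the other way: 24.5 kb downstream (chr3:30628362-30635734) the percentiles were 80.1, 78.2 and 80.7 in WT and 75.4, 66.8 and 74.8 in CREBBP-KO and the shift was −0.72 (SE 0.25, adjusted p = 0.028). This call was lost without WT replicate 1 (adjusted p = 0.066), WT replicate 3 (0.083) or CREBBP-KO replicate 2 (0.14). The fourth call of this gene, 9.3 kb upstream, fell outside the rule for named intervals and was picked after its values were seen, since it was lower with overlapping libraries, at 77.0, 74.8 and 79.7 in WT and 80.0, 57.0 and 63.3 in CREBBP-KO (shift −0.93, SE 0.32, adjusted p = 0.025). It reached the fold filter in WT alone, and the call was lost without WT replicate 1 (adjusted p = 0.059), WT replicate 3 (0.095), CREBBP-KO replicate 2 (0.14) or CREBBP-KO replicate 3 (0.079). With a fold of at least 3 the adjusted p was 0.051. When intervals were ranked by −log10 p, neither this interval (adjusted p = 0.20) nor the one 24.5 kb downstream (0.21) passed.

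SMAD3, which carries the signal from the receptor to DNA, had the most acetylated window of the 9, with 13 tested intervals, 5 of them at protein-coding starts. The interval 16.4 kb upstream (chr15:67046621-67052041), between protein-coding genes, was the highest distal interval of the 9 windows. It had folds of 31.1, 24.7 and 28.9 in WT and 23.9, 31.6 and 30.7 in CREBBP-KO and percentiles of 99.8, 99.4 and 99.8 in WT and 98.7, 99.6 and 99.5 in CREBBP-KO, and it was not called (shift −0.34, SE 0.20, adjusted p = 0.18). The interval 40.6 kb upstream was likewise high and not called, at 94.2, 96.0 and 96.1 in WT and 94.3, 93.3 and 91.9 in CREBBP-KO (shift −0.36, SE 0.16, adjusted p = 0.084). At the canonical start (chr15:67064476-67071338) the percentiles were 93.2, 94.6 and 95.2 in WT and 96.6, 98.2 and 97.4 in CREBBP-KO, without overlap, but the shift of 0.37 (SE 0.16, adjusted p = 0.079) did not pass.

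The SMAD3 intervals that passed lie inside the gene. At alternative starts 59.6 kb downstream of the canonical one (chr15:67114810-67129401), folds were 11.7, 13.5 and 10.7 in WT and 22.5, 21.7 and 24.0 in CREBBP-KO. The knockout libraries were all above WT, with percentiles of 88.1, 92.3 and 85.3 in WT and 98.4, 97.6 and 98.2 in CREBBP-KO and a shift of 1.01 (SE 0.17, adjusted p = 0.00012). A broad intronic interval with its summit 15.4 kb downstream (chr15:67072391-67094652) stood at 74.4, 72.3 and 71.3 in WT and 85.0, 91.3 and 86.0 in CREBBP-KO, with a shift of 0.80 (SE 0.22, adjusted p = 0.0065). Without CREBBP-KO replicate 2 the latter call was lost (adjusted p = 0.059). The other 10 tested intervals of SMAD3, besides the canonical start and these 2, had shifts between −0.36 and 0.39 and included the starts 33.2, 72.6 and 103.2 kb downstream.

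SMAD4, the common partner of receptor-activated SMADs, changed in opposite directions at its promoter and in its own intron. The promoter interval (chr18:51027975-51039309) had folds of 12.2, 12.4 and 16.6 in WT and 21.7, 20.1 and 22.9 in CREBBP-KO. Its percentiles were 89.2, 90.3 and 95.3 in WT and 98.2, 96.8 and 97.8 in CREBBP-KO, and the shift was 0.66 (SE 0.18, adjusted p = 0.0059). The intronic interval 40.3 kb downstream (chr18:51063845-51078645) was the strongest distal site of the gene in WT and ranked lower in the knockout, with folds of 16.6, 16.7 and 13.9 in WT and 11.8, 9.80 and 12.6 in CREBBP-KO. Genotypes did not overlap (95.4, 96.2 and 91.9 in WT and 89.2, 83.4 and 88.2 in CREBBP-KO), and the shift was −0.80 (SE 0.18, adjusted p = 0.0016). When intervals were ranked by −log10 p, neither the promoter (adjusted p = 0.29) nor the intron (0.33) passed. The distal interval 105.1 kb downstream stood at 75.9, 69.4 and 71.8 in WT and 78.0, 84.4 and 85.4 in CREBBP-KO and was not called (shift 0.46, SE 0.24, adjusted p = 0.14).

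SMAD7 was the member with the most called intervals. Its product binds the activated type I receptor and brings in ubiquitin ligases. Of its 8 tested intervals, 5 ranked higher in CREBBP-KO and 1 lower, all distal, while the promoter interval (chr18:48950087-48953272) was not called. Of the 5, only the interval 47.6 kb upstream reached the fold filter in both genotypes. The other 4 reached it in CREBBP-KO alone and had to be high there to be tested. Promoter percentiles were 80.7, 76.3 and 74.3 in WT and 86.8, 78.1 and 84.3 in CREBBP-KO, with overlapping libraries (shift 0.20, SE 0.22, adjusted p = 0.49). One of these 4 lay 24.6 kb upstream, between protein-coding genes (chr18:48975099-48976451), where folds were 3.95, 4.56 and 3.71 in WT and 12.8, 14.2 and 12.4 in CREBBP-KO. Within the full lists the site stood at 44.1, 52.8 and 36.2 in WT and 90.8, 91.5 and 87.8 in CREBBP-KO. Among the tested intervals alone it stood at percentile 2.89, 5.56 and 2.25 in WT and 71.4, 74.8 and 65.9 in CREBBP-KO. The shift was 2.38 (SE 0.26, adjusted p = 2.3e-06). The mean fold rose 3.21-fold.

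The other SMAD7 sites lay on both sides of the start. An intronic interval 20.6 kb downstream (chr18:48928189-48930822) had folds of 4.06, 3.71 and 3.99 in WT and 9.05, 8.93 and 7.82 in CREBBP-KO and a shift of 1.75 (SE 0.28, adjusted p = 8.5e-05). Its summit in WT replicate 3 lay 21.9 kb downstream of the start, while those of the other libraries lay 20.5 to 20.6 kb downstream. The interval 48.6 kb downstream, beyond the 3′ end (chr18:48901678-48903427), had percentiles of 49.3, 64.0 and 61.6 in WT and 91.3, 80.2 and 89.4 in CREBBP-KO and a shift of 1.58 (SE 0.28, adjusted p = 0.00021). Neither showed overlap between genotypes. The interval 47.6 kb upstream (chr18:48993102-48999448), one of the 2 distal intervals of the gene with the highest mean percentile, stood at 78.8, 76.2 and 69.2 in WT and 90.5, 91.1 and 87.8 in CREBBP-KO (shift 0.85, SE 0.20, adjusted p = 0.0026). The single SMAD7 interval called lower, in an intron 27.7 kb downstream, stood at 87.7, 84.2 and 85.7 in WT and 79.2, 81.1 and 81.4 in CREBBP-KO (shift −0.52, SE 0.20, adjusted p = 0.042). It passed narrowly: leaving out 5 of the 6 libraries singly (each except WT replicate 2) ended the call. The fifth interval called higher, 16.4 kb downstream, fell outside the rule for named intervals and stood at 48.1, 30.4 and 30.2 in WT and 77.5, 77.0 and 66.9 in CREBBP-KO (shift 1.45, SE 0.30, adjusted p = 0.00097). The 5 higher SMAD7 calls passed with each of the 6 libraries left out in turn.

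SKIL, the nuclear repressor of SMAD complexes, had 3 tested intervals and none was called. At its promoter (chr3:170355759-170359247) percentiles were 88.4, 80.8 and 82.4 in WT and 90.3, 93.1 and 91.0 in CREBBP-KO and folds were 11.8, 8.93 and 9.76 in WT and 12.5, 15.5 and 14.4 in CREBBP-KO. The 3 CREBBP-KO libraries lay above the 3 WT libraries, but the shift of 0.43 (SE 0.19, adjusted p = 0.07) did not pass; without WT replicate 1 it did (adjusted p = 0.034). The distal interval 56.3 kb downstream moved the opposite way without passing, at 79.8, 80.1 and 73.4 in WT and 76.7, 71.9 and 68.4 in CREBBP-KO (shift −0.61, SE 0.25, adjusted p = 0.056). It passed when intervals were ranked by −log10 p (adjusted p = 0.026), when summits were matched in windows of 500 bp (0.046) and without CREBBP-KO replicate 1 (0.048). The next highest, 49.3 kb upstream, failed the fold filter and stood at 58.9, 64.3 and 47.9 in WT and 63.6, 55.0 and 63.4 in CREBBP-KO.

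TGFBI, an extracellular matrix protein named for its induction by TGF-beta, ranked higher in CREBBP-KO at its promoter and at 2 sites upstream. The promoter interval (chr5:136028454-136034123) had folds of 5.75, 5.61 and 4.95 in WT and 10.9, 10.1 and 11.8 in CREBBP-KO. All 3 knockout libraries exceeded WT, with percentiles of 64.8, 63.7 and 56.0 in WT and 87.5, 84.1 and 86.9 in CREBBP-KO and a shift of 1.37 (SE 0.24, adjusted p = 0.00023); the fold filter was reached in CREBBP-KO alone. In WT replicate 1 the summit lay 3.34 kb downstream of the start, whereas the other 5 lay 0.209 to 0.515 kb downstream; with summits matched in 500-bp windows the shift was 1.49. The interval 22.5 kb upstream (chr5:136003749-136009635), one of the 2 highest distal intervals of the gene, had folds of 9.45, 11.2 and 13.7 in WT and 20.6, 17.2 and 19.7 in CREBBP-KO and a shift of 0.78 (SE 0.19, adjusted p = 0.003), with summits that differed by up to 1.3 kb. The interval 35.2 kb upstream (chr5:135992962-135995550) stood at 71.7, 60.3 and 63.2 in WT and 80.0, 83.8 and 79.4 in CREBBP-KO (shift 0.79, SE 0.26, adjusted p = 0.02), a call lost without WT replicate 2, CREBBP-KO replicate 2 or CREBBP-KO replicate 3 (adjusted p = 0.080, 0.093 and 0.053). The interval 11.3 kb upstream stood at 88.2, 87.2 and 88.8 in WT and 92.4, 92.4 and 89.0 in CREBBP-KO and was not called. All 8 tested intervals of TGFBI had a positive shift, against 51.6% of all tested intervals. They share 1 locus, 5 of them were not called, and the smallest shift was 0.025.

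By gene, the promoter percentile, read over any protein-coding start, was higher in every CREBBP-KO library than in every WT library for 6 of the 9 genes (TGFB1, TGFB2, SMAD3, SMAD4, SKIL and TGFBI; exact permutation test, p = 0.1 each, the smallest possible for 3 against 3). Over 12147 protein-coding genes with a promoter peak in all 6 libraries, 45.0% were higher in this sense and 7.71% lower, so separation at promoters was common. In the same exact permutation test the TGFB1 libraries overlapped in lists of equal length (p = 0.4), and read from −log10 p those of TGFB1 and SMAD4 did (p = 0.3 each), while the other 4 genes stayed separate under both. For SMAD3 the highest knockout peak in libraries 1 and 3 lay at the start 59.6 kb downstream, and for TGFBI the highest WT peak lay at the start 29.0 kb downstream. Group means of TGFB2 rose from 43.1 ± 7.12 (SD, n = 3) to 69.6 ± 1.95 (SD, n = 3), and those of TGFBI from 69.3 ± 0.614 to 86.2 ± 1.82.

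The windows also carried more peaks in CREBBP-KO, as did the lists. The 9 windows held 149, 141 and 142 peaks in WT and 198, 171 and 163 in CREBBP-KO (exact permutation test, p = 0.1). Per 10000 peaks of the list this was 15.9 ± 0.653 (SD, n = 3) and 16.8 ± 0.787 (SD, n = 3), with p = 0.3 in the exact permutation test. The difference in mean number, 33.3 peaks, was 8 in lists cut to equal length and 5 among peaks with a fold of at least 5. A peak was present in all 3 CREBBP-KO and no WT library at 13 of the 200 intervals (6.5%; 2.66% of all merged intervals), and the reverse at 0 (1.08% of all). These 13 failed the fold filter. The highest by percentile lay 39.6 kb upstream of SMAD7 (mean 53.4), 52.7 kb downstream of the SMAD4 start (43.8) and 2.3 kb downstream of the SMAD7 start (43.1).

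The peaks covered more of the windows in CREBBP-KO. The length covered, examined after the peak heights had been seen, summed to 293.0, 295.3 and 289.3 kb over the 9 windows in WT and to 347.9, 360.4 and 374.9 kb in CREBBP-KO (exact permutation test, p = 0.1). The length per peak overlapped between genotypes, at 1.97, 2.09 and 2.04 kb in WT and 1.76, 2.11 and 2.30 kb in CREBBP-KO (exact permutation test, p = 0.9). The total length covered was larger in every CREBBP-KO than every WT library in 6 of the 9 windows, against 34.4% of 17380 genes with covered windows. In the same sense 9.79% of genes were lower. SMAD7 rose from 12.4, 13.3 and 13.9 kb to 24.5, 24.4 and 24.0 kb, a ratio of 1.84. TGFBI rose from 30.7, 30.2 and 27.8 kb to 48.0, 48.5 and 48.7 kb, a ratio of 1.64. Over 10343 genes with at least 10 kb covered in WT the median ratio was 1.07 and 5% of genes exceeded 1.36. These 2 genes lay above 99.7% and 99.4% of them, and the differences of 11.1 and 18.8 kb were 10.7 and 16.8 kb in lists of equal length. TGFBR2 (ratio 1.28) and SMAD3 (1.20) lay above 90.6% and 82.3%; the TGFBR2 difference of 12.6 kb fell to 1.64 kb when only peaks with a fold of at least 5 were counted. SKIL had the lowest ratio, 0.849, with overlapping libraries.

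**Figure D1:**
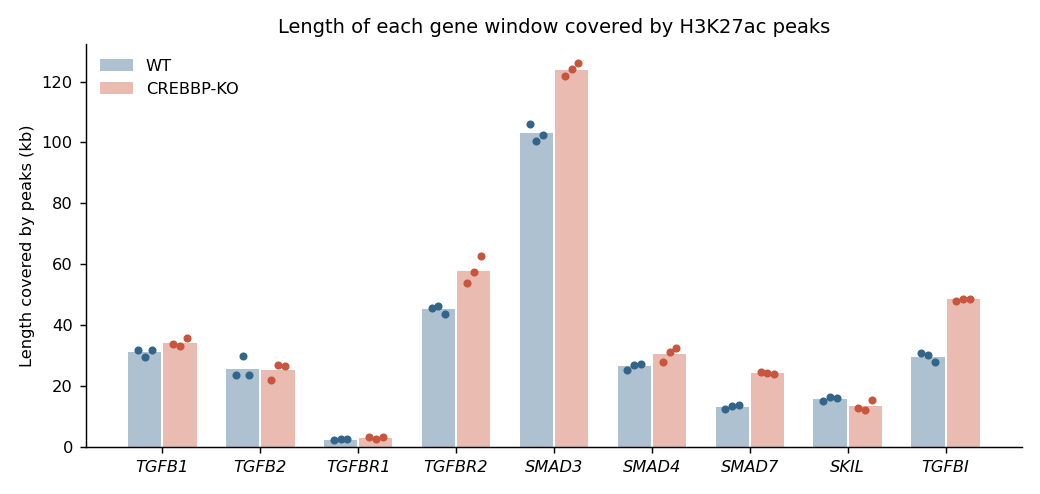
Length of each gene window (gene body plus 50 kb on either side) covered by H3K27ac peaks, in kb; bars are means over 3 libraries and points are libraries. SMAD7 and TGFBI show the largest relative difference, 1.84 and 1.64 times the WT mean in CREBBP-KO.

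A list of 47 other genes of the pathway was read at the canonical start. A peak was present there in all 6 libraries for 41 of them and in none for 3 (ITGB6, PMEPA1 and FOXH1). Of 40 with a tested interval, 15 ranked higher in CREBBP-KO, 2 ranked lower and 23 were not called, against the 25.9% and 8.98% of all promoter intervals given above, and the median shift was 0.23, beside 0.20 over all promoter intervals. Of the 15 called higher, 3 (LTBP2, NEDD4L and TGIF2) reached the fold filter in CREBBP-KO alone and so were tested only because they were high there, and of the 2 called lower LTBP4 reached it in WT alone. The receptors and ligand-processing genes moved in both directions. Among ligands and their activators, LTBP2, a matrix protein of the latent TGF-beta binding family, stood at 40.4, 40.9 and 34.9 in WT and 73.2, 73.7 and 69.0 in CREBBP-KO (shift 1.25, SE 0.28, adjusted p = 0.0018). FURIN, which cleaves the propeptide, and ITGAV, an integrin subunit of latent ligand activation, also ranked higher (shifts 0.46 and 0.48). LTBP4, another of this family, ranked lower at the canonical start with overlapping percentiles, 78.9, 74.2 and 81.0 in WT and 75.3, 59.7 and 67.6 in CREBBP-KO (shift −0.95, SE 0.29, adjusted p = 0.012). At its highest start LTBP4 stood higher in CREBBP-KO, so its 2 readings differ in sign.

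Among receptors, the activin receptors ACVR2A (96.1, 89.6 and 96.1 in WT and 99.1, 99.5 and 99.4 in CREBBP-KO) and ACVR1B (shift 0.91) ranked higher, while TGFBR3, the betaglycan co-receptor, ranked lower, at 87.2, 93.1 and 86.5 in WT and 84.6, 81.5 and 84.9 in CREBBP-KO (shift −0.54, SE 0.19, adjusted p = 0.031). ZFYVE9, which anchors SMADs near the receptor, ranked higher with a shift of 0.68. Of 10 tested inhibitors 3 ranked higher, a share near the 25.9% of all promoter intervals. These were NEDD4L and SMURF1, both ubiquitin ligases, and the corepressor TGIF2. NEDD4L, which entered through its CREBBP-KO folds alone, stood at 10.4, 27.9 and 7.67 in WT and 79.3, 73.9 and 72.0 in CREBBP-KO at the canonical start (shift 2.17, SE 0.30, adjusted p = 1.8e-05). Its strongest start, however, was lower in every knockout library, with a mean percentile of 91.3 against 96.0 in WT. TGIF2 had a shift of 0.85 and SMURF1 of 0.45.

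Among 13 response genes 6 ranked higher, against 25.9% of all promoter intervals, and 0 lower (the lowest shift, not called, was that of TAGLN at −0.35). The 6 were the matrix genes COL1A1 and FN1, the collagen crosslinker LOX, the fibronectin receptor subunit ITGA5, and the transcription factors JUNB and SNAI2. Their shifts ran from 0.54 (ITGA5) to 0.87 (COL1A1). COL1A1 is also among the mesenchymal markers. At their highest start, all 5 had higher percentiles in every CREBBP-KO than every WT library, against 45.0% of protein-coding genes. COL1A1, COL1A2 (shift 0.55) and ZEB1 (0.85) were called higher at the canonical start. VIM and PDGFRB were not called there, and PDGFRB overlapped. The 3 epithelial markers with peaks in all 6 libraries, EPCAM, KRT8 and MUC2, were separated in the same direction. MUC2, tested through its CREBBP-KO folds alone, was called higher (shift 1.63). The part of the mesenchymal markers in the count of response genes was not tested. FN1 had percentiles of 99.1, 98.3 and 98.4 in WT and 99.9, 99.9 and 99.8 in CREBBP-KO and JUNB of 91.0, 86.9 and 87.2 in WT and 94.9, 97.3 and 96.0 in CREBBP-KO. CCN2, CDKN1A and CDKN2B, often used as readouts of the pathway, were not called, with shifts of −0.17, 0.20 and −0.09.

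**Figure D2:**
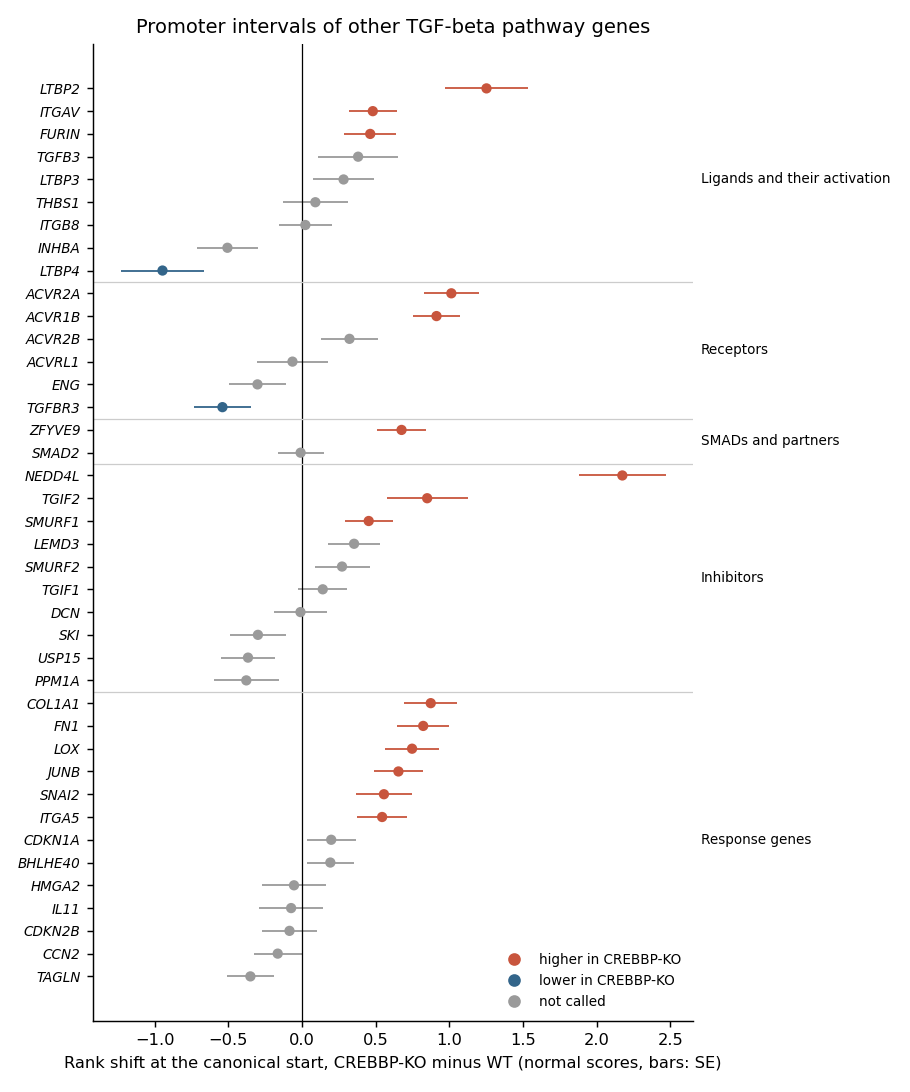
Rank shift (CREBBP-KO minus WT, normal-score units, bars are SE) of the promoter interval at the canonical start for 40 other TGF-beta pathway genes, grouped by role. NEDD4L stands farthest to the right, at 2.17, but was tested only through its CREBBP-KO folds, and LTBP4 and TGFBR3 are the only genes called lower.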

How the data were processed

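H3K27ac ChIP-seq peak lists of 3 WT and 3 CREBBP-KO libraries of HCEC-1CT cells were analysed; the 2 input libraries were not analysed here. The authors aligned reads to hg38 with the nf-core ChIP-seq pipeline and called narrow peaks with MACS2, 1 list per library. Reads were downsampled before their differential analysis; the sources do not say whether the lists precede this step or which input MACS2 used. The deposited fold is a linear ratio over local background. The deposited −log10 p and −log10 q values were used in alternatives only. The deposited summit offset placed each summit. On 24 chromosomes no peak lay beyond the end given by the reference.

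Touching peaks were merged (143733 intervals, also with bedtools 2.31.1). Genes, transcript starts and windows came from GENCODE release 44. Promoter intervals overlapped 1 kb either side of a protein-coding start, and distances run from the canonical start along the gene's strand. The fold filter of the study was applied, and rank shifts were fitted with limma 3.58.1 (lmFit, eBayes with a trend) under R 4.3.3, with Benjamini-Hochberg adjustment; single values used exact permutation tests over libraries (two-sided). In 10 draws of simulated scores for 34864 intervals with 200 shifted, a shift of 1 was recovered at 18% to 38% of intervals, a shift of 2 at 72% to 94% and a shift of 3 at 96% to 100%, with 1 to 8 false calls. The simulation shifted a far smaller share than the 18.6% called higher and 18.7% called lower in the data. It also reassigned spreads at random between intervals, so these rates do not give the recovery in the data. Python 3.11.15 and pandas 2.3.3 were used.

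Members, pathway list and markers were chosen with earlier results of these data known. Named intervals were the promoter of each gene, its 2 distal intervals of highest mean percentile, called distal intervals without overlap between genotypes (at most 3 per direction) and the 3 highest intervals with peaks in 1 genotype only. Pathway genes were named where called, and otherwise where the text gives them as not called. 1 gene of the pathway list is not reported here and was left out of its counts. Covered length and the 2 called intervals outside this rule were added after the data were seen. P-values measure the spread between libraries of these populations.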

Additional observations from a re-analysis of the deposited data

How the results depend on the processing

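The lists hold no read counts, so depth and any change of equal size at all sites are not visible. The count of 15 intervals ranked higher was 9 with a fold of at least 10 and lay between 12 and 16 with single libraries left out, lowest without CREBBP-KO replicate 2; it stayed within 1.5 times under the other settings. The count of 4 ranked lower was less stable: 2 with a fold of at least 3, 1 with a fold of at least 10, 1 when ranked by −log10 p, 7 with 100 kb either side, and 1 to 5 with single libraries left out, with 1 without WT replicate 1 and without CREBBP-KO replicate 2, and 2 without WT replicate 3. The difference of 33.3 peaks was 5 with a fold of at least 5, 7 with −log10 q of at least 5, 8 in lists of equal length, and 23.0 to 40.5 with single libraries left out. The cause of these changes was not tested, except that a stricter threshold leaves fewer intervals.

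Promoter percentile differences changed sign for TGFBR1 without WT replicate 3 (0.586) and without CREBBP-KO replicate 3 (0.457), within a range of −4.74 to 0.586 with single libraries left out. Those of TGFBR2 ran from −1.16 to 0.323, the latter without WT replicate 3, and the difference was 0.516 when read from −log10 p. The shift 134.9 kb downstream of the TGFB2 start was 0.18 when ranked by −log10 p. The covered length of the TGFB2 window, in alternatives chosen after seeing the data, changed sign with a fold of at least 5 (0.769 kb), without WT replicate 2 (1.68 kb) and without CREBBP-KO replicate 1 (1.18 kb), with a lowest value of −1.45 kb without WT replicate 3. Of the 19 calls, ranking by −log10 p ended 6 (the TGFB2 and SMAD4 promoters and all 4 lower intervals, so that the 1 interval then called lower was that of SKIL, 56.3 kb downstream), and leaving out CREBBP-KO replicate 2 ended 6 (3 higher and 3 lower). The TGFB2 promoter call also ended without CREBBP-KO replicate 1 (adjusted p = 0.056), and the call upstream of TGFB1 without CREBBP-KO replicate 2 (0.076). With windows of 500 bp around summits, 27 of 33 shifts kept their call or lack of one and 1 gained a call. The rest gave no value, among them the TGFB2 promoter and the interval 22.5 kb upstream of TGFBI.

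Replicate numbers are shared between genotypes. Same-numbered libraries deviated together only weakly (correlations 0.0108, 0.0144 and 0.0284), and those of different number had correlations from −0.0248 to 0.0118. Values this small cannot show whether libraries were prepared in pairs. A fit with a replicate block gave 15 higher and 4 lower.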
